A study of Macaca mulatta with 27 samples.

Results

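Genes of glycolysis and of the response to low oxygen were followed in rhesus PSCs that were kept in the primed state or cultured under 7 protocols for conversion to the naive state. The list holds 32 genes, taken by name and chosen with earlier results of these data known. Of these, 31 are among the 17967 gene symbols of the count tables, and GPI was not analysed here. All 27 libraries were made from LyonES-tGFP-(S3), 1 clone of the rhesus embryonic stem cell line LyonES that carries a tauGFP reporter under the CAG promoter and a lentiviral STAT3-ERT2 transgene, a form of the transcription factor STAT3 that tamoxifen switches on. Primed cells gave 6 libraries, and each protocol gave 3, namely TL2i, TL-CDK8/19i, t2iLGöY, NHSM-v, E-NHSM, LCDM (EPS), and 4i/L/b. Tamoxifen was given in TL2i and TL-CDK8/19i only, together with LIF. TL2i also contains inhibitors of MEK and GSK3β, and TL-CDK8/19i replaces these with CNIO-47799, an inhibitor of the kinases CDK8 and CDK19. Primed colonies were passaged as clumps by hand and reprogrammed cells as enzyme-dissociated cells, so the manner of passage and the protocol cannot be told apart. Every group is the same clone, and nothing says that the libraries of a group come from separate cultures, so the p-values measure the spread between these libraries only.

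Glycolysis carries glucose from its transporters through hexokinase, phosphofructokinase, aldolase, and the enzymes of the triose steps to pyruvate, and yields ATP without oxygen. Pyruvate is then either reduced to lactate, which leaves the cell through monocarboxylate transporters, or passed to mitochondria by pyruvate dehydrogenase, which the PDK kinases switch off. Many of these genes, together with VEGFA, CA9, BNIP3, EGLN3, ADM, NDRG1, and ANKRD37, are targets of the hypoxia-inducible factors HIF-1α and HIF-2α, which prolyl hydroxylases mark for degradation when oxygen is present. Primed PSCs are known for strong glycolysis, and mouse naive cells for using both glycolysis and mitochondrial respiration.

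Counts were scaled to CPM, the count of a gene in relation to the library total, with edgeR's TMM factors. A gene was called where the quasi-likelihood test of edgeR gave a p that stayed under 0.05 after Benjamini-Hochberg adjustment over all genes tested. Libraries held from 7111886 to 20760914 counts, and 3 counts, taken as the floor, correspond to between 0.145 and 0.422 CPM. Marker genes of other states moved with the protocols. The 10 pluripotency markers summed to between 6200 and 7040 CPM in primed and between 7210 and 7270 CPM in E-NHSM libraries. They reached 1920 to 2640 CPM in TL-CDK8/19i and 132 to 610 CPM in the other 5 protocols, where NANOG was at the floor in all but TL2i. The 12 neural markers summed to 7370 to 7620 CPM in LCDM (EPS) against 2440 to 2770 CPM in primed cells, where SOX1 was at the floor, and to 1360 to 5140 CPM elsewhere. The 10 fibroblast and mesenchyme markers summed to 12400 to 16100 CPM in 4i/L/b, 8960 to 11600 CPM in TL-CDK8/19i, and 9150 to 9570 CPM in NHSM-v. In primed cells they summed to 1180 to 2430 CPM, with LUM and DCN at the floor, and in the other groups to 528 to 6350 CPM. In bulk RNA, fewer cells of a kind and less RNA per cell cannot be told apart, and the part of these markers in the differences below was not tested.

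The primed group was itself divided for these genes. Its columns carry the letters J and K, 3 libraries each, and the letters are in no label, so what they stand for is not known. Of the 30 genes that passed the filter on low counts, 10 were lower in K than in J and none was higher, where 1.7% of all 12559 genes tested were lower and 3.73% differed in either direction. The 10 were SLC2A1, PFKP, PFKFB4, ALDOC, TPI1, GAPDH, ENO2, LDHA, SLC16A3, and BNIP3. SLC16A3, the lactate exporter MCT4, lay between 105 and 141 CPM in J and between 41.2 and 50.7 CPM in K, the widest gap of the list (log2 fold change -1.39, SE 0.15, adjusted p = 3.6e-05). LDHA, the lactate dehydrogenase subunit that favours the reduction of pyruvate, lay between 965 and 1230 CPM in J and between 395 and 529 CPM in K (log2 fold change -1.24, SE 0.1, adjusted p = 1.3e-06). ADM went the other way, with 17.7 to 24.8 CPM in J and 31 to 47 CPM in K, and was not called (adjusted p = 0.075). HK2, SLC16A1, SLC2A3, and LDHB had overlapping J and K values and log2 differences between 0.03 and 0.17. With J2, K1, or K3 left out the count of called genes fell from 10 to 5. All protocols share these 6 libraries as their reference, and for genes whose call turns on the letter, values against J alone or K alone are given beside them.

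**Figure D1:**
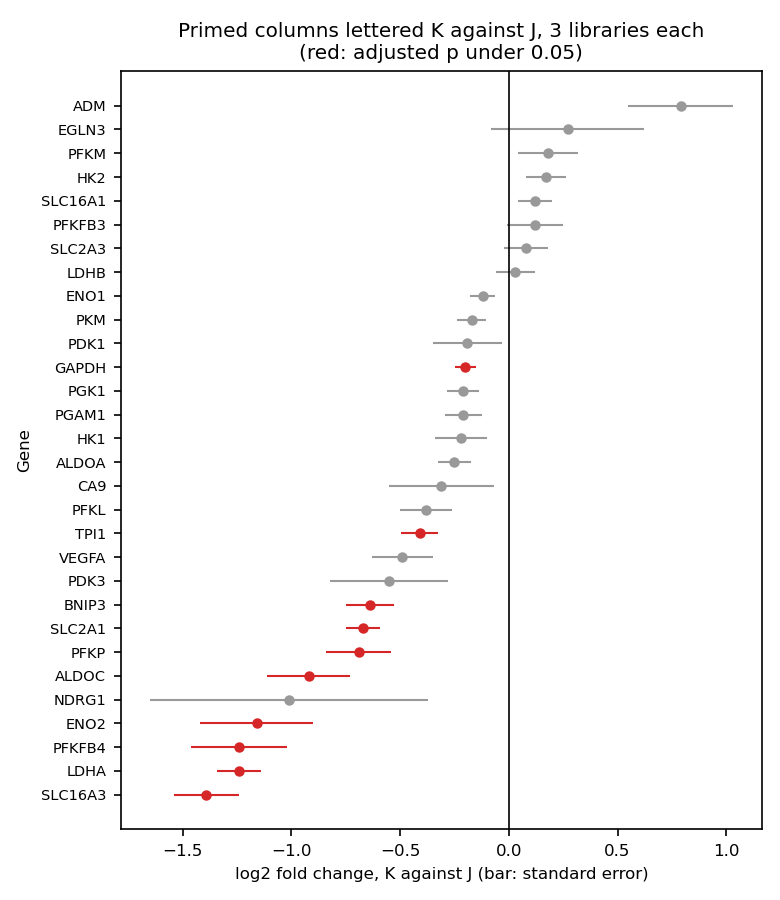
Log2 fold change (x axis) of each of the 30 tested genes (y axis) between the 3 primed columns lettered K and the 3 lettered J, with bars for the standard error and red for an adjusted p under 0.05. The 10 red points all lie left of 0, from SLC16A3 at -1.39 to GAPDH at -0.2.

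In 4 of the 7 protocols most of the list was lower than in primed cells. In t2iLGöY, 24 of the 30 tested genes were lower and 2 higher, where 27.2% of all genes tested were called lower and 27.1% higher. In LCDM (EPS), 26 were lower and 1 higher, against 28.9% and 28.2% of all genes. In NHSM-v, 22 were lower and 5 higher, against 30.6% and 28%. In 4i/L/b, 22 were lower and 6 higher, against 29% and 26.6%. The median log2 fold change of the list was -1.83 in t2iLGöY, -1.46 in LCDM (EPS), -0.91 in NHSM-v, and -0.93 in 4i/L/b, while the median of all genes lay between -0.02 and 0.03.

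The other 3 protocols did not show this. TL2i had 10 lower and 9 higher genes, where 25.2% and 25.6% of all genes were called, and TL-CDK8/19i had 10 lower and 8 higher, where 23.8% and 22.3% were. Their medians were -0.07 and -0.2, and the counts of the list stand near the background in both directions. In E-NHSM the list leaned upwards, with 16 genes higher and 7 lower against 11.1% and 15.1% of all genes, and a median of 0.35. Scaling by library totals moved the higher share of all called genes in E-NHSM from 42.3% to 54.2% and that of the list from 69.6% to 72%. The share of the library's counts that fell on the list was 1.07 to 1.44% in primed cells, 1.53 to 1.68% in E-NHSM, and 0.42 to 0.437% in t2iLGöY. Taken against J alone and against K alone as well, 14 of the 16 higher and all 7 lower genes of E-NHSM kept their call, and so did 23 of the 24 lower genes of t2iLGöY. For TL-CDK8/19i this held for 7 of the 10 lower and 7 of the 8 higher genes.

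**Figure D2:**
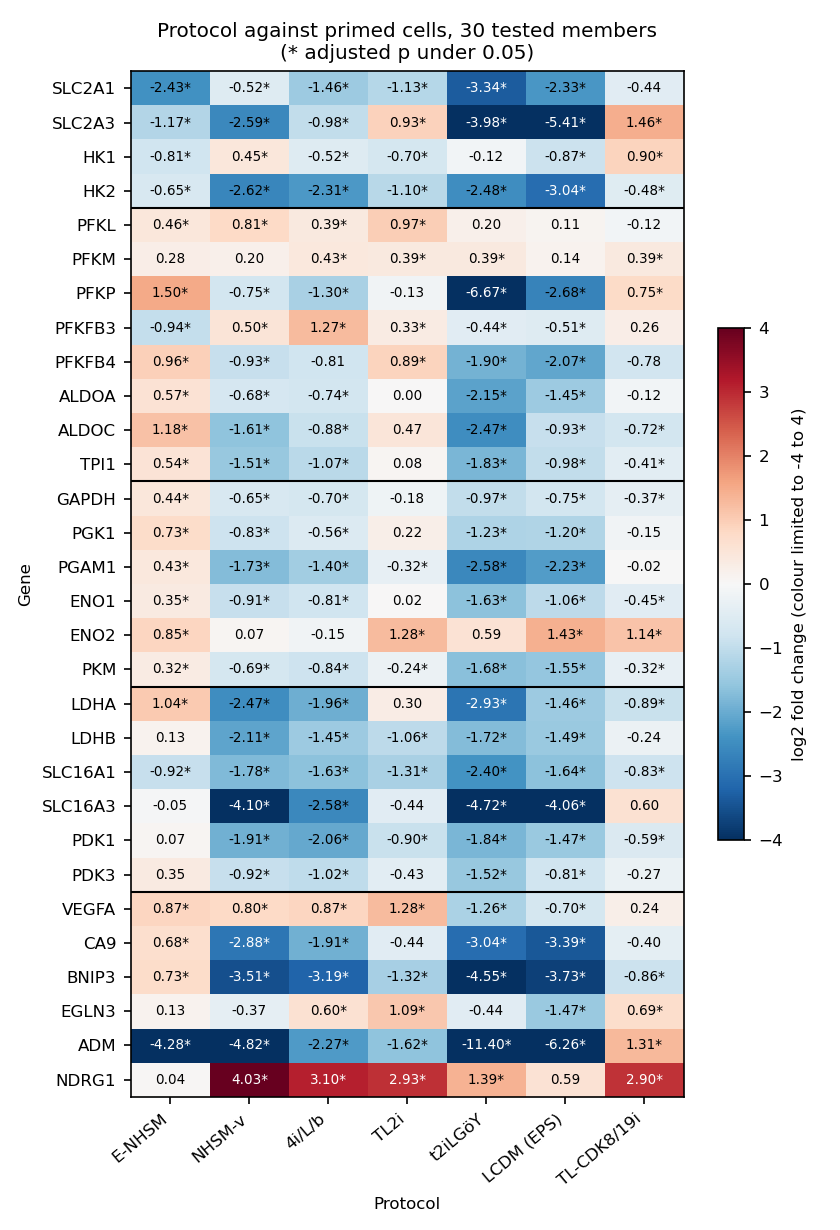
Log2 fold changes of 30 genes (rows, grouped by step of the pathway) in each protocol (columns) against the 6 primed libraries, with asterisks for an adjusted p under 0.05 and colours limited to -4 and 4. The t2iLGöY and LCDM (EPS) columns are blue in nearly every row and the E-NHSM column is red from PFKP to LDHA except for PFKFB3. The -11.4 of ADM in t2iLGöY is a fitted value against libraries with 0 counts and not a measured fold.

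HK2 and SLC16A1 were the only genes of the list called lower in all 7 protocols, which held for 2.79% of the 12732 genes tested in all 7. PKM, SLC2A1, PDK1, BNIP3, and ADM were called lower in 6, and in the remaining one SLC2A1 and PDK1 were not called while PKM, BNIP3, and ADM were higher. With HK2 and SLC16A1 that makes 7 of the 30 genes lower in at least 6 protocols, where 11.1% of all genes were. No gene of the list was higher in 6 protocols or more, against 6.32% of all genes, and NDRG1 came nearest, with 5. Calls in both directions, higher in 1 protocol or more and lower in another, were found for 19 of the 30 genes and for 24.7% of all genes.

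The transporters of glucose entry were lower in most protocols. SLC2A1, the widely expressed transporter GLUT1, lay between 679 and 1290 CPM in primed cells, with a median of 1030. It was lowest in t2iLGöY, at 102, 108, and 85.8 CPM (log2 fold change -3.34, SE 0.21, adjusted p = 5.1e-09). E-NHSM libraries, in which most of the pathway was higher, held 218, 166, and 185 CPM (-2.43, SE 0.19, adjusted p = 2.1e-08). None of these libraries came near the primed range. LCDM (EPS) had 200, 220, and 187 CPM (-2.33, SE 0.2, adjusted p = 2e-07), 4i/L/b 354, 409, and 384 CPM (-1.46, SE 0.19, adjusted p = 1.8e-05), and TL2i 414, 526, and 457 CPM (-1.13, SE 0.19, adjusted p = 0.00023), again all below every primed library. NHSM-v was different, with 725, 694, and 748 CPM, inside the range of the K columns. Its call (-0.52, SE 0.17, adjusted p = 0.017) rested on the J columns, with -0.78 against J and -0.15 against K (adjusted p = 0.11). It was also lost without J1, J2, or NHSM-v replicate 1 or 2. In TL-CDK8/19i, at 734, 778, and 827 CPM, SLC2A1 was not called (-0.44, adjusted p = 0.055), and was lower against J alone (-0.71, adjusted p = 3.2e-05).

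SLC2A3, the high-affinity transporter GLUT3, separated the protocols further. Primed cells held 417 to 566 CPM, with a median of 482 and little difference between the letters. All 3 libraries of TL-CDK8/19i were above this range, at 1360, 1380, and 1480 CPM (log2 fold change 1.46, SE 0.089, adjusted p = 1.8e-08), and those of TL2i were too, at 759, 1180, and 885 CPM (0.93, SE 0.13, adjusted p = 3.5e-05). These are the 2 protocols that use tamoxifen, and no other protocol had a higher SLC2A3. No group had tamoxifen alone, and its part in this was not tested. In LCDM (EPS) SLC2A3 fell to 14.4, 13.2, and 7.31 CPM (-5.41, SE 0.21, adjusted p = 6.6e-11). t2iLGöY libraries held 27.2, 17.1, and 47.7 CPM (-3.98, SE 0.26, adjusted p = 6.9e-09). The remaining 3 protocols were also below every primed library, with 78 to 89.2 CPM in NHSM-v, 211 to 228 CPM in E-NHSM, and 249 to 268 CPM in 4i/L/b.

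Hexokinase traps glucose in the cell as its phosphate, HK1 being the constitutive form and HK2 the inducible one. HK2 lay between 268 and 354 CPM in primed cells, median 319, and below 268 CPM in each of the 21 reprogrammed libraries. The fall was smallest in TL-CDK8/19i, at 238, 218, and 249 CPM (log2 fold change -0.48, SE 0.096, adjusted p = 0.00085), and E-NHSM, at 207, 198, and 205 CPM (-0.65, SE 0.091, adjusted p = 3e-05). TL2i held 143, 156, and 147 CPM (-1.1, SE 0.098, adjusted p = 6.1e-07). In the other 4 protocols the levels were far below these. LCDM (EPS) had 43, 39.3, and 33.7 CPM (-3.04, SE 0.12, adjusted p = 7.6e-11), and NHSM-v 47.8, 54.9, and 54.9 CPM (-2.62, SE 0.11, adjusted p = 4.7e-11). t2iLGöY held 42.9, 62.2, and 63 CPM (-2.48, SE 0.14, adjusted p = 1.6e-09), and 4i/L/b 68.7, 64.1, and 65.5 CPM (-2.31, SE 0.1, adjusted p = 5.8e-10).

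HK1 had no common direction. Its primed libraries lay between 151 and 161 CPM apart from J3 at 212 CPM. TL-CDK8/19i rose to between 295 and 353 CPM (log2 fold change 0.9) and NHSM-v to between 215 and 241 CPM (0.45), both above all primed libraries. Lower values were found in LCDM (EPS) (-0.87), E-NHSM (-0.81), TL2i (-0.7), and 4i/L/b (-0.52), each without overlap with primed cells. In t2iLGöY HK1 was not called (-0.12, adjusted p = 0.44), although HK2 was well below the primed range in the same libraries.

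**Figure D3:**
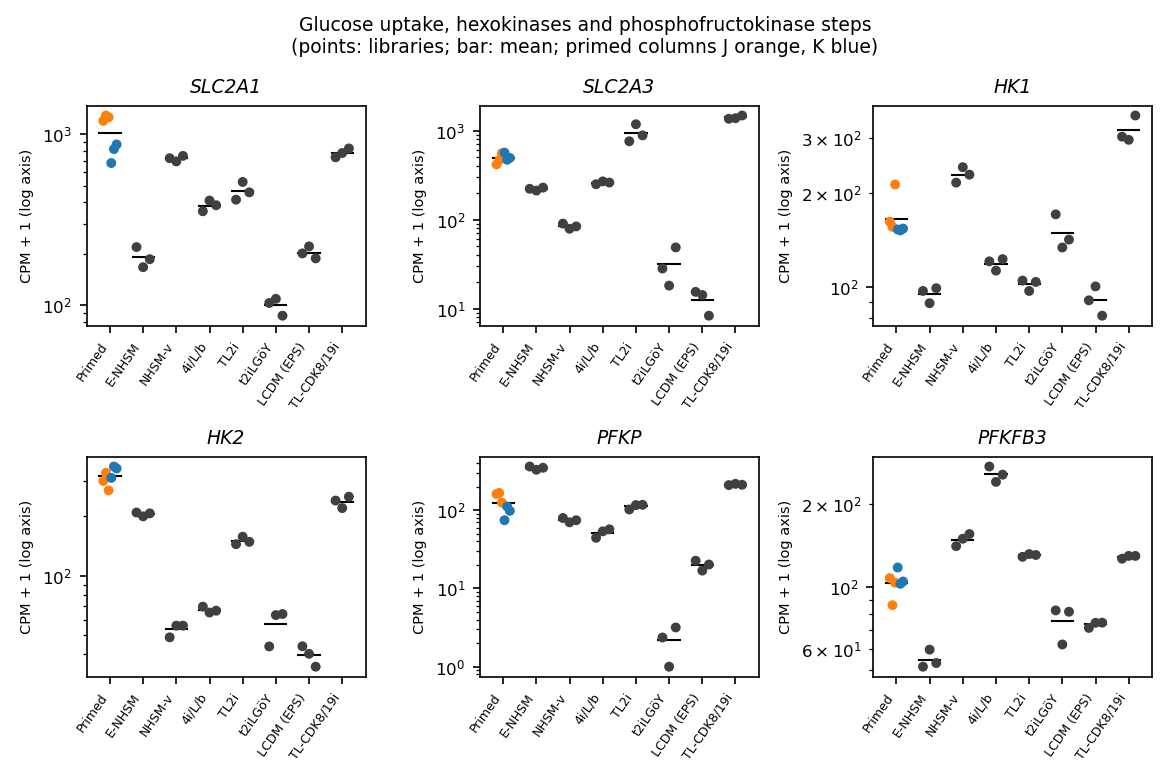
CPM plus 1 on a log axis for the glucose transporters SLC2A1 and SLC2A3, the hexokinases HK1 and HK2, and PFKP and PFKFB3 in the 8 groups (x axis), with 1 point per library, bars at group means, and primed columns J in orange and K in blue. HK2 is below the primed points everywhere, and SLC2A3 is above them in TL2i and TL-CDK8/19i only.

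The next step is catalysed by phosphofructokinase, built from the subunits PFKL, PFKM, and PFKP and known as the main control point of the pathway. PFKP, the platelet-type subunit, lay between 73.3 and 165 CPM in primed cells, median 117. In E-NHSM it was the gene with the largest rise of the list, at 360, 327, and 347 CPM (log2 fold change 1.5, SE 0.18, adjusted p = 4.1e-06). In t2iLGöY it held 1.36, 0, and 2.17 CPM, that is 20, 0, and 30 counts (-6.67, SE 0.52, adjusted p = 5.1e-08). These values do not overlap with any other group. LCDM (EPS) libraries had 21.6, 15.9, and 19.2 CPM (-2.68, SE 0.25, adjusted p = 5.5e-07), and 4i/L/b 43.3, 52.6, and 55.9 CPM (-1.3). PFKP was higher in TL-CDK8/19i, at 208, 216, and 210 CPM (0.75, SE 0.2, adjusted p = 0.006), lower in NHSM-v (-0.75), and uncalled in TL2i (-0.13), where it was lower against J alone (-0.43, adjusted p = 0.02).

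The other subunits did not follow PFKP. PFKL, the liver-type subunit, was higher in TL2i (0.97), NHSM-v (0.81), E-NHSM (0.46), and 4i/L/b (0.39), with no overlap with the primed range of 95.4 to 140 CPM, and it was lower in none. Against K alone PFKL was also higher in t2iLGöY (0.38, adjusted p = 0.016) and LCDM (EPS) (0.3, adjusted p = 0.028), and against J alone it was not (0.02 and -0.05). PFKM, the muscle-type subunit, was higher in 4i/L/b (0.43) and by 0.39 in each of TL-CDK8/19i, t2iLGöY, and TL2i, and also lower in none. NHSM-v (0.33, adjusted p = 0.048) and E-NHSM (0.38, adjusted p = 0.034) were called higher for PFKM against J alone, with 0.11 and 0.19 against K. The t2iLGöY libraries thus held 133 to 151 CPM of PFKM beside almost no PFKP. The PFKM calls of t2iLGöY, TL2i, and TL-CDK8/19i were each lost when 1 library of the protocol was left out (t2iLGöY replicate 1, TL2i replicate 1 or 3, TL-CDK8/19i replicate 2). Under all alternatives the values of these 3 protocols stayed between 0.28 and 0.52.

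PFKFB3 and PFKFB4 make and break down the metabolite that activates phosphofructokinase. PFKFB3 was highest in 4i/L/b, at 273, 240, and 255 CPM against 85.2 to 117 CPM in primed cells (log2 fold change 1.27, SE 0.096, adjusted p = 1e-07). It was also higher in NHSM-v (0.5) and TL2i (0.33), and lower in E-NHSM (-0.94), LCDM (EPS) (-0.51), and t2iLGöY (-0.44). The TL2i and t2iLGöY calls were each lost without replicate 2 of the protocol, and that of t2iLGöY was absent against J alone (-0.38, adjusted p = 0.057). In TL-CDK8/19i PFKFB3 was called higher against J alone (0.34, adjusted p = 0.03) and not against K (0.2, adjusted p = 0.091). PFKFB4 differed between the primed letters, with 66.3 to 89.1 CPM in J and 24.1 to 48 CPM in K. Only the falls in LCDM (EPS) (-2.07) and t2iLGöY (-1.9) and the rises in E-NHSM (0.96) and TL2i (0.89) kept their calls against either letter. The E-NHSM rise was lost with DESeq2 and without E-NHSM replicate 1 or 3, and the TL2i rise with DESeq2 and without K2, K3, or any 1 TL2i library. The fall in NHSM-v (-0.93, adjusted p = 0.038) was -1.38 against J and -0.18 against K (adjusted p = 0.52), and was lost without most single libraries. In TL-CDK8/19i (-0.78) and 4i/L/b (-0.81) PFKFB4 was not called, and was lower against J alone, at -1.25 (adjusted p = 0.00037) and -1.28 (adjusted p = 1e-04).

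Aldolase and triosephosphate isomerase, which split the sugar and interconvert the products, were lower in 4 protocols. ALDOA, the main aldolase, lay between 716 and 960 CPM in primed cells and between 177 and 193 CPM in t2iLGöY (log2 fold change -2.15), with -1.45 in LCDM (EPS), -0.68 in NHSM-v, and -0.74 in 4i/L/b. It rose to between 1150 and 1330 CPM in E-NHSM (0.57) and was not called in TL2i (0) or TL-CDK8/19i (-0.12), the latter lower against J alone (-0.22, adjusted p = 0.049) and not against K (0.02). TPI1 behaved alike, from -1.83 in t2iLGöY to 0.54 in E-NHSM, and was also lower in TL-CDK8/19i (-0.41), a call absent against K alone (-0.19, adjusted p = 0.11) and without TL-CDK8/19i replicate 2 or 3. ALDOC, the brain-type aldolase, rose to 109, 94, and 94.8 CPM in E-NHSM from 23.8 to 60.2 CPM in primed cells (1.18, SE 0.22, adjusted p = 0.00067). Its lower calls in 4i/L/b (-0.88), LCDM (EPS) (-0.93), and TL-CDK8/19i (-0.72) were absent against K alone, at -0.34, -0.41, and -0.19. The 4i/L/b call was also lost without its replicate 2 or 3, and the TL-CDK8/19i call without any 1 J column or any 1 library of the protocol. Those in t2iLGöY (-2.47) and NHSM-v (-1.61) were present against both letters. In TL2i ALDOC was higher against K alone (0.98, adjusted p = 0.00027) and 0.08 against J.

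From GAPDH to PKM, the steps that yield NADH and ATP, 6 of 6 genes were higher in E-NHSM, where 11.1% of all genes were. There the log2 fold changes ran from 0.32 for PKM to 0.85 for ENO2 (adjusted p = 0.044), whose call was absent against J alone. GAPDH, the dehydrogenase of the pathway and a common reference gene, was 2240 to 2730 CPM in primed cells. It was 3310, 3250, and 3460 CPM in E-NHSM (0.44, SE 0.06, adjusted p = 2e-05) and 1220, 1190, and 1250 CPM in t2iLGöY (-0.97, SE 0.07, adjusted p = 2.1e-08), so that the groups did not overlap. It was also called lower in LCDM (EPS) (-0.75), 4i/L/b (-0.7), NHSM-v (-0.65), and TL-CDK8/19i (-0.37), and not in TL2i (-0.18, adjusted p = 0.09), where it was lower against J alone (-0.27, adjusted p = 0.039) and not against K (-0.09). PGAM1, phosphoglycerate mutase, fell further, to 54.4, 49.7, and 74.9 CPM in t2iLGöY from 305 to 408 CPM (-2.58, SE 0.14, adjusted p = 1.2e-09), and by 2.23 on the log2 scale in LCDM (EPS). Its smaller fall in TL2i (-0.32, adjusted p = 0.03) was absent against K alone (-0.22, adjusted p = 0.13). PGK1, which forms the first ATP, ranged from -1.23 in t2iLGöY to 0.73 in E-NHSM. It was called in TL2i against K alone only (0.32, adjusted p = 0.014) and in TL-CDK8/19i against J alone only (-0.23, adjusted p = 0.045). GAPDH, PGK1, ENO1, TPI1, ALDOA, PKM, and LDHA have processed pseudogenes, and how shared reads were counted is not given in the sources used here, so their levels carry that uncertainty.

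PKM, pyruvate kinase, was lower in all protocols but E-NHSM. Primed libraries ranged from 784 to 939 CPM, median 903. t2iLGöY held 284, 267, and 257 CPM (log2 fold change -1.68, SE 0.084, adjusted p = 4.3e-10) and LCDM (EPS) 292, 308, and 299 CPM (-1.55, SE 0.077, adjusted p = 8.2e-10). Both lie far below the primed range. The values were 492, 480, and 545 CPM in 4i/L/b (-0.84, SE 0.08, adjusted p = 1e-06), 577, 555, and 529 CPM in NHSM-v (-0.69, SE 0.077, adjusted p = 1.9e-06), and 702, 753, and 729 CPM in TL-CDK8/19i (-0.32, SE 0.078, adjusted p = 0.0039). TL2i overlapped with primed cells, at 817, 675, and 746 CPM, and its call (-0.24, SE 0.085, adjusted p = 0.031) was lost against K alone (-0.16), with upper-quartile or DESeq2 size factors or library totals, and without J2, K2, or TL2i replicate 2 or 3. E-NHSM was above the primed range, at 1180, 997, and 1110 CPM (0.32, SE 0.073, adjusted p = 0.0035).

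The enolases moved apart. ENO1 was lower in t2iLGöY (log2 fold change -1.63), LCDM (EPS) (-1.06), NHSM-v (-0.91), 4i/L/b (-0.81), and TL-CDK8/19i (-0.45), and none of these overlapped with the primed range of 1770 to 2110 CPM. ENO2, the neuron-type enolase, was lower in none. It reached 62.7, 57.4, and 72 CPM in LCDM (EPS) against 14 to 46.1 CPM in primed cells, median 21 (1.43, SE 0.31, adjusted p = 0.0012), and was the only gene called higher there. LCDM (EPS) was also the group with the highest summed neural markers, at 7370 to 7620 CPM, whose part in this was not tested. ENO2 was called higher in TL2i (1.28), TL-CDK8/19i (1.14), and E-NHSM (0.85) as well. Their neural sums were 2980 to 3140, 2240 to 2360, and 1360 to 1520 CPM, against 2440 to 2770 CPM in primed cells. Such sums follow the most abundant markers. Called singly, 8 of 11 tested neural markers were higher and 0 lower in TL2i, where 25.6% and 25.2% of all genes were. In TL-CDK8/19i 4 of 9 were higher and 1 lower, against 22.3% and 23.8%, and in E-NHSM 2 of 8 and 3, against 11.1% and 15.1%. The sums were above the primed range in t2iLGöY (4670 to 5140 CPM), NHSM-v (3870 to 3930 CPM), and 4i/L/b (3410 to 3610 CPM). ENO2 was not called in these against all primed libraries. In primed cells J2 was at 46.1 CPM and the K columns between 14 and 15.7 CPM, and against J alone the E-NHSM call was absent (0.39, adjusted p = 0.26), as it was without J1, any K column, or any E-NHSM library. Against K alone ENO2 was also higher in t2iLGöY (1.26, adjusted p = 0.00019), NHSM-v (0.75, adjusted p = 0.0066), and 4i/L/b (0.55, adjusted p = 0.026), and against J alone in none of these.

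The subunits of lactate dehydrogenase and the lactate transporters were each called lower in 4 to 7 protocols. LDHA was 395 to 1230 CPM in primed cells, with the letters apart as described above. All 3 E-NHSM libraries were above this range, at 1660, 1490, and 1730 CPM (log2 fold change 1.04, SE 0.26, adjusted p = 0.0059), with 0.56 against J and 1.79 against K, both called. The 4 protocols in which most of the list was lower were all below it. They held 104, 100, and 100 CPM in t2iLGöY (-2.93, SE 0.34, adjusted p = 4e-06), 143, 135, and 155 CPM in NHSM-v (-2.47, SE 0.33, adjusted p = 1.3e-05), 193, 201, and 230 CPM in 4i/L/b (-1.96), and 302, 303, and 253 CPM in LCDM (EPS) (-1.46). These falls were called against either letter.

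For TL2i and TL-CDK8/19i the LDHA result turned on the primed letter. TL2i held 1110, 848, and 958 CPM, and the log2 fold change of 0.3 was not called. It was -0.18 against J and 1.03 against K (adjusted p = 2.6e-05). TL-CDK8/19i held 445, 420, and 460 CPM, inside the range of the K columns, and LDHA had the largest called fall of that comparison (-0.89, SE 0.31, adjusted p = 0.03). The value was -1.36 against J and -0.14 against K (adjusted p = 0.28), and the call was also lost with DESeq2 and without J1, J2, or any 1 of the TL-CDK8/19i libraries.

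LDHB, the subunit that favours the reverse reaction, was steadier in primed cells, at 396 to 490 CPM in both letters. It was lower in NHSM-v (-2.11), t2iLGöY (-1.72), LCDM (EPS) (-1.49), 4i/L/b (-1.45), and TL2i (-1.06), with no overlap. In E-NHSM (0.13, adjusted p = 0.24) and TL-CDK8/19i (-0.24, adjusted p = 0.056) it was not called, though in TL-CDK8/19i it was lower against K alone (-0.26, adjusted p = 0.046). TL2i thus held LDHB below the primed range beside LDHA within it.

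SLC16A1, the transporter MCT1 that moves lactate and pyruvate either way, lay between 531 and 665 CPM in primed cells, median 636, and was below 531 CPM in every reprogrammed library. The lowest were in t2iLGöY, at 122, 103, and 120 CPM (log2 fold change -2.4, SE 0.098, adjusted p = 5e-11), and NHSM-v, at 185, 180, and 184 CPM (-1.78, SE 0.085, adjusted p = 1.8e-10). LCDM (EPS) had 193, 220, and 182 CPM (-1.64, SE 0.091, adjusted p = 2.5e-09), and 4i/L/b 193, 217, and 210 CPM (-1.63, SE 0.087, adjusted p = 3.5e-09). The last 3 lie close together. TL2i followed with 262, 246, and 240 CPM (-1.31, SE 0.087, adjusted p = 3e-08). E-NHSM had 301, 341, and 344 CPM (-0.92, SE 0.081, adjusted p = 1.5e-07) and TL-CDK8/19i 337, 351, and 392 CPM (-0.83, SE 0.088, adjusted p = 3.1e-06).

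SLC16A3, the exporter MCT4 and a HIF-1α target, nearly disappeared in 3 protocols. NHSM-v held 4.4, 5.04, and 5.28 CPM (-4.1, SE 0.45, adjusted p = 1.4e-06), LCDM (EPS) 4.15, 4.48, and 6.28 CPM (-4.06, SE 0.45, adjusted p = 3.3e-06), and t2iLGöY 5.32, 0, and 4.05 CPM (-4.72, SE 0.7, adjusted p = 4.6e-05). Replicate 2 of t2iLGöY had 0 counts of SLC16A3, PFKP, and CA9, where the other libraries of that group had between 20 and 84. The fall in 4i/L/b was -2.58. In the remaining protocols the call depended on the primed letter. E-NHSM, at 69.8 to 87.2 CPM, was lower against J (-0.59, adjusted p = 0.0044) and higher against K (0.8, adjusted p = 9.3e-05), and TL2i, at 56 to 65.7 CPM, was lower against J (-0.97) and higher against K (0.39, adjusted p = 0.017). TL-CDK8/19i, at 128 to 133 CPM, lay within the J range and was higher against K only (1.45, adjusted p = 1e-06).

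The PDK kinases inactivate pyruvate dehydrogenase and so keep pyruvate from mitochondria. PDK1 lay between 73.4 and 81.1 CPM in 5 primed libraries and at 52.6 CPM in K1. It was lower in 4i/L/b, at 14.6, 19.5, and 19.4 CPM (log2 fold change -2.06, SE 0.17, adjusted p = 2.4e-07), and in NHSM-v, at 20.2, 13.8, and 24.7 CPM (-1.91, SE 0.2, adjusted p = 9.2e-07). t2iLGöY held 22.9, 16.9, and 19.7 CPM (-1.84, SE 0.18, adjusted p = 4.7e-07) and LCDM (EPS) 25.2, 27.2, and 25.7 CPM (-1.47, SE 0.15, adjusted p = 1.5e-06). These 4 protocols did not overlap with primed cells. TL2i had 38.9, 40.8, and 36.4 CPM (-0.9, SE 0.14, adjusted p = 0.00013) and TL-CDK8/19i 53.3, 41.7, and 53.7 CPM (-0.59, SE 0.15, adjusted p = 0.0048), the latter overlapping with K1. E-NHSM, at 71.1, 79.7, and 77.4 CPM, was within the primed range (0.07, adjusted p = 0.76). PDK3 was lower in t2iLGöY (-1.52), 4i/L/b (-1.02), NHSM-v (-0.92), and LCDM (EPS) (-0.81), although the last was absent against K alone (-0.53, adjusted p = 0.059) and without LCDM (EPS) replicate 1 or 2. The NHSM-v call was lost without its replicate 1. PDK3 was called lower in TL2i against J alone (-0.66, adjusted p = 0.036) and higher in E-NHSM against K alone (0.64, adjusted p = 0.019).

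**Figure D4:**
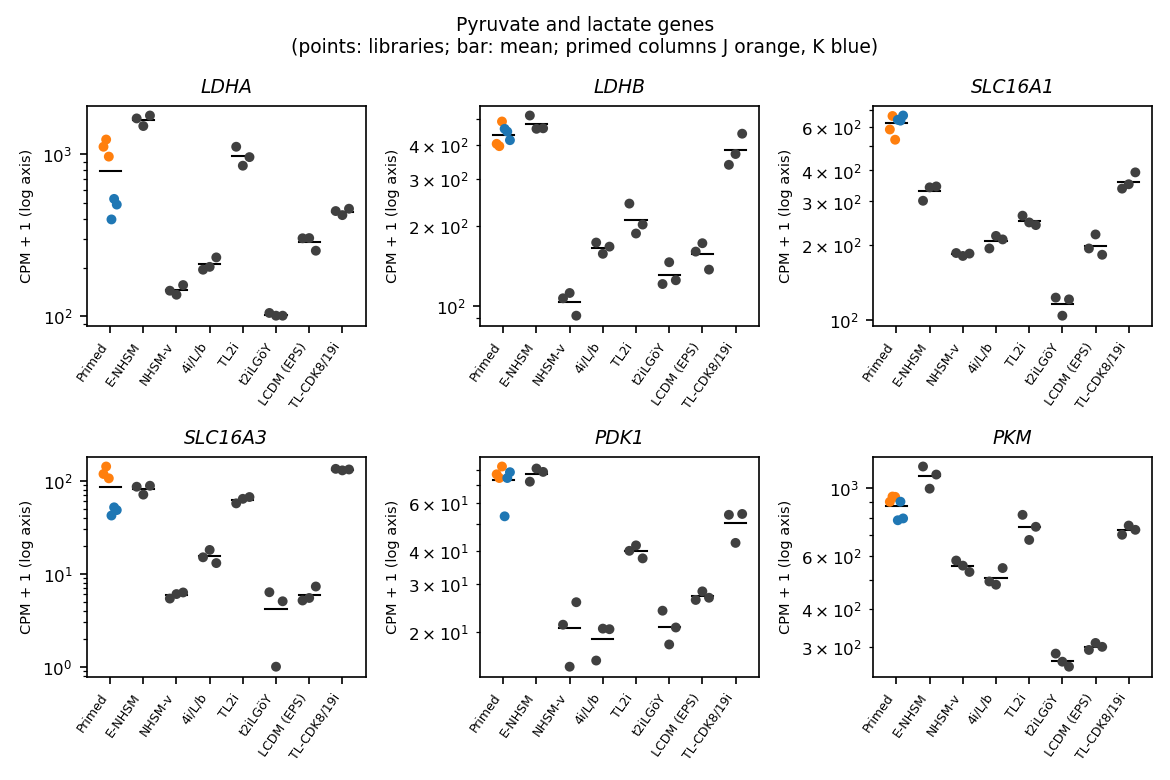
CPM plus 1 on a log axis for LDHA, LDHB, SLC16A1, SLC16A3, PDK1, and PKM in the 8 groups (x axis), with 1 point per library, bars at group means, and primed columns J in orange and K in blue. The J and K points of LDHA and SLC16A3 do not overlap, and SLC16A1 is below the primed points in all 7 protocols.

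The hypoxia-response genes outside metabolism did not move as one. BNIP3, a mitophagy receptor induced by HIF-1α, lay between 325 and 707 CPM in primed cells, median 527. In t2iLGöY it held 26.8, 17, and 22 CPM (log2 fold change -4.55, SE 0.26, adjusted p = 1.6e-09), and in LCDM (EPS) 41.8, 39.6, and 37.3 CPM (-3.73, SE 0.23, adjusted p = 6.6e-09). NHSM-v had 52, 43.5, and 45 CPM (-3.51, SE 0.22, adjusted p = 4e-09), and 4i/L/b, where it was the largest fall of the list, 56.3, 59.6, and 62.2 CPM (-3.19, SE 0.22, adjusted p = 4.4e-08). These 12 libraries were all below the lowest primed library. TL2i held 238, 193, and 201 CPM (-1.32, SE 0.2, adjusted p = 9.7e-05) and TL-CDK8/19i 283, 242, and 371 CPM (-0.86, SE 0.21, adjusted p = 0.0034), the latter overlapping with K1. In E-NHSM BNIP3 rose to 851, 832, and 942 CPM (0.73, SE 0.16, adjusted p = 0.0022), above every primed library.

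CA9, a carbonic anhydrase of the cell surface and a classical hypoxia marker, was lower in LCDM (EPS) (-3.39), t2iLGöY (-3.04), NHSM-v (-2.88), and 4i/L/b (-1.91). It was at 30.9 to 39.2 CPM in E-NHSM against 17.6 to 25.6 CPM in primed cells (0.68, SE 0.18, adjusted p = 0.0092), a rise that was absent against J alone (0.54, adjusted p = 0.059) and without E-NHSM replicate 3. In TL2i (-0.44, adjusted p = 0.065) and TL-CDK8/19i (-0.4, adjusted p = 0.099) it was not called, and was lower against J alone.

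VEGFA, the growth factor of blood vessels, was higher in 4 protocols and lower in 2. It was higher in NHSM-v, at 148, 142, and 151 CPM (0.8, SE 0.15, adjusted p = 0.00028), and in 4i/L/b, at 132, 165, and 173 CPM (0.87, SE 0.16, adjusted p = 0.00031), against 57.9 to 99.7 CPM in primed cells. The highest level was in TL2i, at 174, 231, and 201 CPM (1.28, SE 0.16, adjusted p = 1.3e-05). All libraries of these protocols were above the primed range. E-NHSM was higher by 0.87, while t2iLGöY, at 31.2 to 37.7 CPM (-1.26), and LCDM (EPS), at 47 to 55.4 CPM (-0.7), were lower and below every primed library. In TL-CDK8/19i VEGFA was not called (0.24, adjusted p = 0.27), and was higher against K alone (0.5, adjusted p = 0.013) but not against J (0.03).

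ADM, the vasodilator peptide adrenomedullin, had the largest fall of the list in 5 protocols. Primed libraries held 17.7 to 47 CPM, median 27.9. No read was counted in any of the 3 t2iLGöY libraries, which makes ADM at least 139-fold lower there with the floor set at 3 counts per library (adjusted p = 4e-08). LCDM (EPS) had 0.74, 0.377, and 0 CPM (log2 fold change -6.26, SE 0.61, adjusted p = 8.8e-07), NHSM-v 0.451, 0.206, and 2.29 CPM (-4.82, SE 0.56, adjusted p = 3e-06), and E-NHSM 1.13, 1.45, and 1.88 CPM (-4.28, SE 0.36, adjusted p = 8.3e-08). E-NHSM thus combined a low ADM with higher BNIP3 and VEGFA. In 4i/L/b ADM was at 5.96, 6.32, and 6.26 CPM (-2.27, SE 0.31, adjusted p = 2.9e-05), and in TL2i at 8.14, 10.6, and 9.62 CPM (-1.62, SE 0.29, adjusted p = 4e-04). TL-CDK8/19i was the exception, at 68.1, 74.3, and 80.7 CPM, above all primed libraries (1.31, SE 0.23, adjusted p = 0.00034).

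NDRG1, induced by hypoxia and by differentiation, was the member with the largest rise in 5 protocols. Primed libraries held 2.9 to 6.04 CPM apart from J3 at 12.6 CPM. NHSM-v reached 84.2, 77.3, and 97.2 CPM (log2 fold change 4.03, SE 0.35, adjusted p = 1.1e-07), and 4i/L/b 44.1, 46.3, and 48.4 CPM (3.1, SE 0.37, adjusted p = 8.5e-06). TL2i had 32, 49, and 39.3 CPM (2.93, SE 0.38, adjusted p = 2.4e-05), and TL-CDK8/19i 38.3, 43.9, and 40 CPM (2.9, SE 0.37, adjusted p = 2e-05). None of these libraries overlapped with J3. Summed fibroblast and mesenchyme markers were above the primed 1180 to 2430 CPM in these 4, from 3300 CPM in a TL2i library to 16100 CPM in a 4i/L/b library. They were also above it in t2iLGöY, at 3420 to 4040 CPM, although LUM and DCN were at the floor there. Of the 8 markers tested in t2iLGöY, 3 were higher and 3 lower, against 27.1% and 27.2% of all genes. The part of these markers in the NDRG1 levels was not tested. NDRG1 in t2iLGöY, at 12.9, 13.9, and 14.4 CPM (1.39, SE 0.46, adjusted p = 0.019), was just above J3. Its call was absent against J alone (0.96, adjusted p = 0.13) and without replicate 2 or 3. In E-NHSM (0.04) and LCDM (EPS) (0.59) NDRG1 was not called, and without J3 or against K alone (1.17, adjusted p = 0.021) it was called in LCDM (EPS).

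EGLN3, a prolyl hydroxylase that acts on HIF and is itself induced by it, was higher in TL2i, at 25, 23.8, and 22.3 CPM against 9.05 to 15.3 CPM (1.09, SE 0.22, adjusted p = 0.00095). LCDM (EPS) was lower, at 4.61, 5.66, and 1.73 CPM (-1.47, SE 0.4, adjusted p = 0.0064). The rises in TL-CDK8/19i (0.69, adjusted p = 0.033) and 4i/L/b (0.6, adjusted p = 0.047) were absent against K alone, at 0.56 and 0.49, and were lost without several single libraries, J2 among them. ANKRD37, a small protein of ankyrin repeats encoded by a HIF-1α target, could not be tested. It was at 0 counts in all primed, E-NHSM, and t2iLGöY libraries and at most at 0.833 CPM elsewhere, and it passed the filter on low counts in none of these comparisons.

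**Figure D5:**
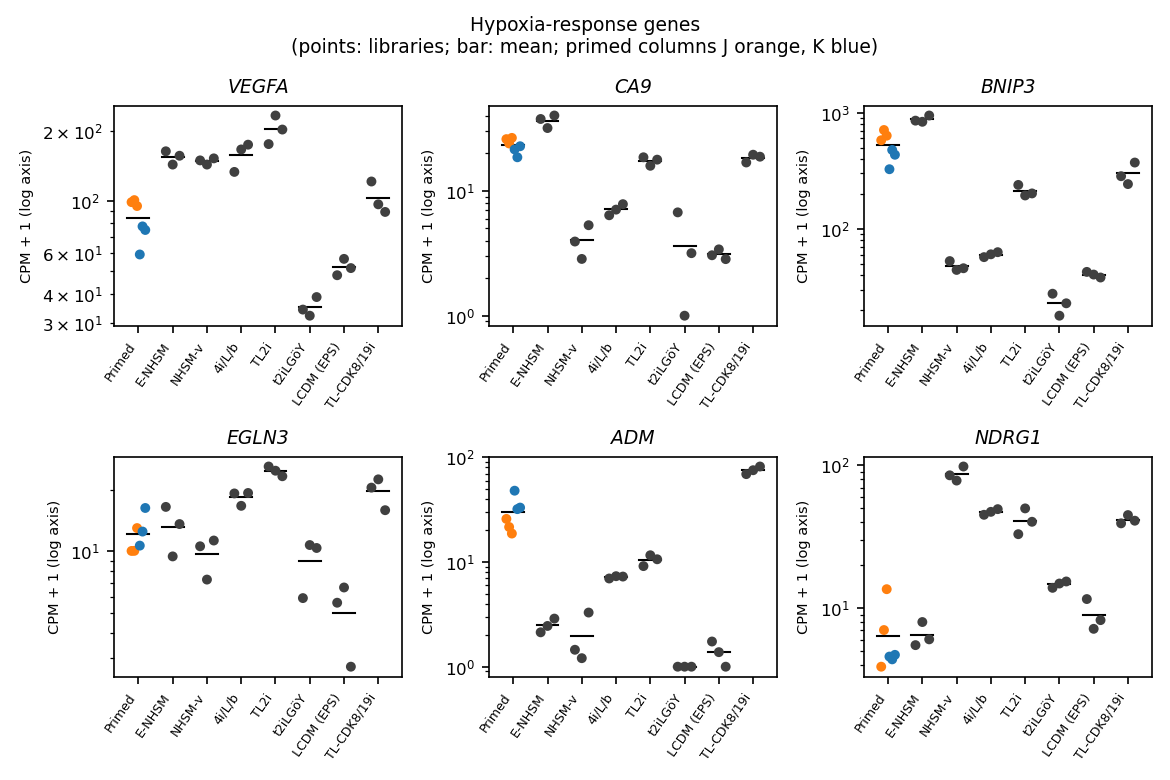
CPM plus 1 on a log axis for VEGFA, CA9, BNIP3, EGLN3, ADM, and NDRG1 in the 8 groups (x axis), with 1 point per library, bars at group means, and primed columns J in orange and K in blue. ADM is below the primed points in all protocols but TL-CDK8/19i, and NDRG1 lies at 32 CPM or more in TL2i, NHSM-v, TL-CDK8/19i, and 4i/L/b.

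Ratios within a library, given here with no test, show how isozyme pairs shifted. The log2 ratio of HK2 to HK1 counts was 0.96 ± 0.32 (SD, n = 6) in primed cells and 1.11 ± 0.058 (n = 3) in E-NHSM. It dropped to -2.11 ± 0.059 (n = 3) in NHSM-v, with -1.41 in t2iLGöY, -1.21 in LCDM (EPS), and -0.83 in 4i/L/b. The log2 ratio of SLC2A3 to SLC2A1 rose by 2.01 in TL2i, 1.86 in TL-CDK8/19i, and 1.23 in E-NHSM relative to the primed mean, and decreased by 3.15 in LCDM (EPS). The ratio of ENO2 to ENO1 shifted upwards in all 7 protocols, from 0.61 in E-NHSM to 2.6 in LCDM (EPS), measured from the primed mean. Primed libraries ranged from -7.01 to -5.43, however, and all libraries of E-NHSM and 4i/L/b lay within that range. For LDHB to LDHA the shift was -1.49 in TL2i, -1.04 in E-NHSM, and 1.07 in t2iLGöY, but the primed libraries themselves ranged from -1.64 to 0.22. The ratio of PFKFB4 to PFKFB3 rose by 2.05 in E-NHSM and decreased by 1.93 in 4i/L/b. Its primed libraries ranged from -2.27 to 0.02, with all E-NHSM libraries above that range and all 4i/L/b libraries below it. PDK3 to PDK1 shifted by 0.31 to 1.08 in the 7 protocols and ALDOC to ALDOA by -0.86 to 0.68. Primed libraries ranged from -2.35 to -1.28 for the first, overlapping with E-NHSM, TL2i, t2iLGöY, and TL-CDK8/19i. For the second they ranged from -4.9 to -3.93, with all 4i/L/b libraries inside. The shift of PFKP to PFKM went from 1.26 in E-NHSM to -2.78 in LCDM (EPS), and that of SLC16A3 to SLC16A1 from 1.59 in TL-CDK8/19i to -2.25 in LCDM (EPS). The primed libraries themselves ranged from -0.49 to 0.97 and from -3.95 to -2.23 for these ratios. In t2iLGöY the means of both ratios are lower still, and both include a library with 0 counts. For PFKP to PFKM all t2iLGöY libraries were at -5.88 or below, under the -2.91 to -2.44 of LCDM (EPS). For SLC16A3 to SLC16A1 the highest t2iLGöY library, at -4.48, was above the -5.57 to -4.82 of LCDM (EPS).

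TL-CDK8/19i and TL2i use the same STAT3 switch and differ in the inhibitors, and their comparison does not use the primed libraries. Of the 30 genes, 12 were higher in TL-CDK8/19i and 9 lower, where 31.5% and 33.3% of all genes were, and the median difference was 0.01. The list as a whole therefore stands near the background. ADM had the largest rise, from between 8.14 and 10.6 CPM in TL2i to between 68.1 and 80.7 CPM (log2 fold change 2.95, SE 0.13, adjusted p = 4.7e-10). HK1 (1.62), SLC16A3 (1.06), PFKP (0.9), LDHB (0.84), SLC2A1 (0.71), HK2 (0.63), SLC2A3 (0.55), SLC16A1 (0.5), and BNIP3 (0.47) were higher too. These include both glucose transporters, both hexokinases, and both lactate transporters of the list. PFKFB4 had the largest fall, from between 97.2 and 116 CPM in TL2i to between 28.2 and 41.9 CPM (-1.65, SE 0.14, adjusted p = 2.1e-07). LDHA (-1.17), ALDOC (-1.17), PFKL (-1.07), VEGFA (-1.02), TPI1 (-0.48), ENO1 (-0.45), and PGK1 (-0.36) were lower with it, the last not without TL2i replicate 1. The smaller calls of PDK1 (0.33), PGAM1 (0.32), and EGLN3 (-0.38) were each lost when any of several single libraries was left out. PDK1 was also not called with the replicate number as a block.

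NHSM-v and E-NHSM, 2 media of the NHSM name, were compared in the same way. In NHSM-v 21 genes were lower than in E-NHSM and 5 higher, against 34.8% and 33.4% of all genes, and the median was -1.24. BNIP3 fell most, from 832 to 942 CPM in E-NHSM to 43.5 to 52 CPM in NHSM-v (log2 fold change -4.23, SE 0.08, adjusted p = 6.7e-15). SLC16A3 (-4.04), CA9 (-3.54), LDHA (-3.5), and ALDOC (-2.78) followed. The 5 higher genes were NDRG1, from 4.52 to 7.01 CPM to 77.3 to 97.2 CPM (3.96, SE 0.19, adjusted p = 1.3e-10), SLC2A1 (1.92), PFKFB3 (1.46), HK1 (1.27), and PFKL (0.37). VEGFA (-0.06, adjusted p = 0.52) and ADM (-0.58, adjusted p = 0.61) were not distinguishable between them. Pluripotency markers were at 7210 to 7270 CPM in E-NHSM and 132 to 148 CPM in NHSM-v, and fibroblast and mesenchyme markers at 528 to 559 and 9150 to 9570 CPM. Over all 7 protocols together, 30 of the 30 genes differed, where 90.9% of all genes did, so this count does not set the list apart.

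Other genes of the same pathways were counted for comparison. Of 36 further genes of glycolysis, gluconeogenesis, and pyruvate metabolism, 26 to 28 could be tested per protocol, with calls in both directions throughout. There were 10 lower and 4 higher in t2iLGöY, 8 and 2 in LCDM (EPS), 9 and 5 in NHSM-v, 7 and 4 in 4i/L/b, 5 and 6 in TL2i, 3 and 9 in TL-CDK8/19i, and 3 and 7 in E-NHSM. Of all genes, 28.9% were lower in LCDM (EPS), 30.6% in NHSM-v, and 29% in 4i/L/b, and the lower counts there stand near these shares. The higher shares of all genes in these 3 were 28.2%, 28%, and 26.6%. In t2iLGöY 27.2% of all genes were lower and 27.1% higher, and in TL2i 25.2% and 25.6%. The shares were 23.8% and 22.3% in TL-CDK8/19i and 15.1% and 11.1% in E-NHSM. The medians of the further genes lay between -0.17 and 0.4. PCK2, the mitochondrial enzyme that forms phosphoenolpyruvate, was at 32 to 40.1 CPM in primed cells, 95.5 to 109 CPM in E-NHSM (1.49), 63.5 to 76.3 CPM in TL-CDK8/19i (0.85), and 2.31 to 4.06 CPM in LCDM (EPS) (-3.4). PDK4, a further kinase of pyruvate dehydrogenase, held at most 2.29 CPM in primed cells. It was called higher in 4i/L/b, at 12.8 to 13.8 CPM, NHSM-v, at 10.1 to 14.4 CPM, TL2i, and TL-CDK8/19i, opposite to PDK1. HK3 and SLC2A4 stayed at or below 4.13 and 5.74 CPM in every library. HK3 was called higher in the 3 protocols where it could be tested, TL2i, LCDM (EPS), and 4i/L/b, and SLC2A4 in 2 of 6, TL2i and TL-CDK8/19i. Both passed the filter on low counts only through the libraries of the protocols tested, so a lower call was hardly open to them.

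Among 13 regulators of HIF, 12 or 13 of which could be tested, between 1 and 5 were higher and between 1 and 4 lower in a protocol. Between 11.1% and 28.2% of all genes were higher in a protocol, and between 15.1% and 30.6% lower. HIF1A itself, named here after its values were seen, was lower in 6 protocols by modest amounts, from -0.31 in t2iLGöY to -0.68 in TL2i and LCDM (EPS), and not in TL-CDK8/19i (0.09, adjusted p = 0.43). EPAS1, which encodes HIF-2α, was at most at 0.558 CPM in primed cells and at 26.7 to 49.9 CPM in TL2i, 7.01 to 7.54 CPM in 4i/L/b, and 5.99 to 11 CPM in TL-CDK8/19i, and was called higher in these 3. It passed the filter on low counts in these 3 only, through the protocol libraries, so a lower call was hardly open to it. ARNT2, a partner of the HIF proteins, was higher in 5 protocols, up to 3.82 in LCDM (EPS). EGLN1, the main oxygen-sensing hydroxylase, was higher in 6, up to 1.4 in LCDM (EPS). TCEB1, elongin C of the VHL ligase, was lower in 6, down to -1.23 in NHSM-v. TCEB2, elongin B of the same ligase and named here only as its partner, was higher in 2 and lower in 0.

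A set of 25 further HIF targets held calls in both directions in every protocol, with medians between -0.62 and 0.5. Of these, 11 were higher and 4 lower in TL-CDK8/19i, 12 and 6 in NHSM-v, and 8 and 6 in 4i/L/b. t2iLGöY had 8 higher and 10 lower, and LCDM (EPS) 6 and 11. TL2i had 8 and 3, and E-NHSM 6 and 4. All 25 were tested in each protocol. Of all genes, 22.3% were higher and 23.8% lower in TL-CDK8/19i, 28% and 30.6% in NHSM-v, and 26.6% and 29% in 4i/L/b. The shares were 27.1% and 27.2% in t2iLGöY and 28.2% and 28.9% in LCDM (EPS). They were 25.6% and 25.2% in TL2i and 11.1% and 15.1% in E-NHSM. AK4, a mitochondrial adenylate kinase, fell from 281 to 406 CPM in primed cells to 14.5 to 27.6 CPM in t2iLGöY (-4.04) and was lower in all protocols but E-NHSM (-0.16, adjusted p = 0.23). DDIT4, an inhibitor of mTORC1 signalling, rose from 7.81 to 17.7 CPM to 114 to 134 CPM in t2iLGöY (3.47) and was higher in all protocols but 4i/L/b (0.69, adjusted p = 0.056). NRN1 reached 45.2 to 60.4 CPM in t2iLGöY from at most 3.14 CPM in primed cells (4.75). These targets thus went in opposite directions within the same libraries.

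Of the 8 genes of the pentose phosphate pathway, which branches off after hexokinase, between 0 and 3 were higher and between 1 and 3 lower in each protocol. RPE was lower in 6 protocols, and TKT ranged from -0.95 in LCDM (EPS) to 0.56 in E-NHSM. RPIA, an isomerase of the pathway, was higher in TL-CDK8/19i (0.91) and uncalled elsewhere. TKTL1 had 0 counts in all primed libraries and stayed at or below 3.62 CPM elsewhere, and it was called higher in LCDM (EPS), TL2i, and t2iLGöY, the 3 protocols where it could be tested. With 0 primed counts it passed the filter only through the libraries of those protocols, so a lower call was not possible. Among 10 regulators of glycolytic genes, between 0 and 3 were higher and between 2 and 7 lower. For this list and the pentose phosphate genes, the shares of all genes were 11.1% to 28.2% higher and 15.1% to 30.6% lower. MYC was lower in all 7 protocols. It went from 326 to 382 CPM in primed cells to 147 to 164 CPM in E-NHSM (log2 fold change -1.21, SE 0.084, adjusted p = 6e-09) and 1.73 to 9.68 CPM in LCDM (EPS) (-6.25, SE 0.39, adjusted p = 9.7e-09). In E-NHSM 16 genes of the main list, LDHA, PFKP, and PGK1 among them, were higher. Another 7, SLC2A1 and HK2 among them, were lower, and a relation of either to MYC was not tested. LIN28A, a regulator of let-7 that is also counted among the pluripotency markers, was lower in 6 protocols and not in E-NHSM (0.1, adjusted p = 0.49). MLXIPL and ESRRB were each called in 1 protocol, MLXIPL in TL-CDK8/19i, at 1.95 to 2.61 CPM against at most 0.647 CPM in primed cells, and ESRRB in LCDM (EPS), at 5.01 to 7.47 CPM. MLXIPL passed the filter in that protocol only and ESRRB in 3, through the protocol libraries, so a lower call was hardly open to either.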

How the data were processed

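RNA from 27 libraries was sequenced, and the authors deposited raw read counts per gene symbol, 17967 in all, with no normalization. The submitters' processing notes name bcl2fastq, cutadapt, HISAT2, and HTSeq. Settings, build, and annotation are not given in the sources used here. Groups were taken from the sample labels. The primed columns carry the letters J and K, which no label explains, so they were assigned to the primed group without sample numbers.

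Tests used edgeR 4.0.16 with limma 3.58.1 in R 4.3.3: TMM factors, filterByExpr on the libraries compared, and the quasi-likelihood test over all genes with Benjamini-Hochberg adjustment at 0.05. The standard error was derived from the log2 fold change and the F statistic. The prior count was 2. Library totals had a median of 12201171 counts, and floors of 3 counts cover counting error only. The 36 pairs of libraries within groups differed by more than counting error, so none were merged and each counted as 1 replicate. This does not show that they come from separate cultures. Same-numbered libraries of different protocols did not deviate together, and the replicate numbers were used as names only.

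The 32 members and the further lists were chosen with earlier results of these data known. Full statistics are given for the largest called rise and fall of each comparison and for members called in 1 direction in 6 or more protocols. Other members have values where they help to place these. Of the further lists, up to 4 called genes with the largest mean change are named. Of these, 1 gene is not reported here. Of 155 symbols in all lists, 154 were found. Alternatives were DESeq2 1.42.0, other normalizations, filters, and thresholds, J or K alone, all groups in 1 fit, the replicate block, a prior count of 0.5 for the ratios, and leaving out each library. The test was checked on simulated data with known changes. Sequences were not used here.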

Additional observations from a re-analysis of the deposited data

Results flagged for a closer look

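In 3 of the 30 genes whose 6 primed libraries were checked, the highest or lowest library stood apart from the others by more than Dixon's critical value for the gap to the nearest library divided by the range. Chance alone gives about 1 such group in 20. HK1 was at 212 CPM in J3 and between 151 and 161 CPM in the other 5 libraries (gap over range 0.831). NDRG1 was at 12.6 CPM, also in J3, and between 2.9 and 6.04 CPM in the others (0.675). PDK1 was at 52.6 CPM in K1 and between 73.4 and 81.1 CPM in the others (0.727).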

How the results depend on the processing

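Of the 300 values for 1 gene in 1 comparison, 225 were called, and none of these changed direction under any alternative run. Over 5273 recomputed values, 4885 kept direction and call, 236 lost the call, 80 gained it, and 72, belonging to 26 uncalled values, changed sign. Requiring an absolute log2 fold change of at least 1 lowered the number of called genes from 23 to 6 in E-NHSM, 27 to 14 in NHSM-v, 28 to 16 in 4i/L/b, 19 to 10 in TL2i, 18 to 4 in TL-CDK8/19i, 21 to 8 between TL-CDK8/19i and TL2i, and 10 to 4 between the primed letters. This is the alternative's own construction.

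Leaving out 1 library gave 20 to 23 called genes in E-NHSM, 24 to 27 in NHSM-v, 26 to 29 in 4i/L/b, 16 to 19 in TL2i, 24 to 27 in t2iLGöY, 26 to 28 in LCDM (EPS), and 13 to 21 in TL-CDK8/19i. It gave 18 to 20 between TL-CDK8/19i and TL2i, 26 between NHSM-v and E-NHSM, 30 to 31 among the 7 protocols, and 5 to 11 between the primed letters, with 5 without J2, K1, or K3. With the replicate block, 20 genes were called between TL-CDK8/19i and TL2i, 26 between NHSM-v and E-NHSM, and 30 among the protocols, and NDRG1 turned to 0.01 between TL-CDK8/19i and TL2i. PDK1 in that comparison lost its call with the replicate block. No paired analysis was possible against primed cells because their columns carry no replicate number.

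Changes of sign concerned log2 fold changes near 0 or values that differed between the primed letters. Against J alone they were PDK1 -0.02 and NDRG1 -0.37 in E-NHSM, ENO2 -0.36 in NHSM-v, TPI1 -0.09, ENO1 -0.03, and LDHA -0.18 in TL2i, and PFKL -0.05 in LCDM (EPS). Against K alone they were SLC16A3 0.8 in E-NHSM, ENO2 0.55 in 4i/L/b, PFKP 0.23, ALDOA 0.12, and SLC16A3 0.39 in TL2i, and PFKL 0.07, ALDOA 0.02, PGAM1 0.09, and PDK3 0.03 in TL-CDK8/19i. ALDOA in TL2i became 0.03 with DESeq2 or its size factors, 0.04 with upper-quartile scaling or at least 10 counts in every library, 0.12 with library totals, and 0 from below without a filter or with all 8 groups in 1 fit. PGAM1 in TL-CDK8/19i became 0.04 with DESeq2 or its size factors, 0.03 with at least 10 counts or all groups, and 0 with library totals. NDRG1 between TL-CDK8/19i and TL2i became 0.01 with DESeq2, its size factors, or no filter, and 0.02 with all groups. Library totals gave SLC16A3 0.02 in E-NHSM, HK1 0.01 in t2iLGöY, and PFKM -0.1 and CA9 -0.07 between TL-CDK8/19i and TL2i. Upper-quartile scaling gave SLC16A3 0.01 in E-NHSM and PFKM -0.02 between TL-CDK8/19i and TL2i. The cause was not tested.

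Leaving out single libraries gave signs of either kind in some of these values. In E-NHSM the ranges were SLC16A3 -0.19 to 0.16, NDRG1 -0.16 to 0.49, PDK1 0 to 0.12, and EGLN3 -0.08 to 0.34. ENO2 ranged from -0.02 to 0.41 in NHSM-v and -0.28 to 0.18 in 4i/L/b. In TL2i the ranges were ENO1 -0.05 to 0.1 and ALDOA -0.07 to 0.12, and in TL-CDK8/19i PGAM1 -0.07 to 0.07. Between TL-CDK8/19i and TL2i they were ALDOA -0.19 to 0, PKM -0.1 to 0.02, PFKM -0.02 to 0.09, NDRG1 -0.13 to 0.2, and ENO2 -0.26 to 0.06. Between the letters they were LDHB -0.03 to 0.13 and SLC2A3 -0.01 to 0.2.

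Library totals in place of TMM moved the median of all genes by over 0.1 in some comparisons, from 0.07 to 0.19 in TL2i, 0.02 to 0.15 in t2iLGöY, 0.03 to 0.15 in LCDM (EPS), -0.04 to -0.16 between TL-CDK8/19i and TL2i, and -0.03 to -0.15 between NHSM-v and E-NHSM. The counts of higher and lower genes in t2iLGöY and LCDM (EPS) were the same under all normalizations. Precision is limited for ADM, PFKP, SLC16A3, and CA9 in t2iLGöY and for ADM in LCDM (EPS), where libraries held between 0 and 84 counts.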
